A study of Mus musculus with 12 samples.

Results

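The insulin and insulin-like growth factor (IGF) system was followed through 10 genes chosen by name: the ligand gene Igf1, the receptor genes Igf1r and Insr, the docking protein genes Irs1 and Irs2, and the binding protein genes Igfbp1, Igfbp3, Igfbp4, Igfbp5 and Igfbp7. All 10 were among the 46095 gene symbols of the deposited count table, and all 10 passed the filter on low counts that left 17530 genes. RNA had been sequenced from the renal cortex of C57BL/6 mice labelled 12 weeks old, with 4 libraries in each of 3 groups. The groups were diabetic nephropathy with sodium butyrate (DN+NaB), diabetic nephropathy without it (DN), and normal control (NC). Both disease groups carry the same disease label, and the way diabetes was brought about is not in the labels, nor is the butyrate regimen. Sodium butyrate is a short-chain fatty acid salt that inhibits histone deacetylases. Because libraries are not tied to individual animals by any label, the p-values measure only the spread between these samples.

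Insulin and IGF1 bind 2 related receptor tyrosine kinases, the insulin receptor (Insr) and the IGF1 receptor (Igf1r). The activated receptors phosphorylate the docking proteins IRS1 and IRS2, which recruit PI3 kinase and so switch on Akt, which in turn keeps FOXO transcription factors out of the nucleus. Binding proteins hold IGFs in blood and tissue and set how much reaches the receptors. Most circulating IGF1 comes from the liver under growth hormone, but kidney cells transcribe Igf1 as well, and insulin acts on tubule cells as well as on podocytes.

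Kidney genes were abundant in every library, whose total counts ran from 58394975 to 70674015. Lrp2, the proximal tubule receptor megalin, had 547305 to 852758 counts, and the neuronal gene Snap25 had 0, which allows up to 3, although the extraction protocol names a brain region. The 7 neuronal and glial markers summed to 16.3 to 24.6 CPM, CPM being counts scaled to a common library size. DN replicate 4 stood apart in injury: 10 markers of injured tubule summed to 3686 CPM there, while DN replicates 1 to 3 had 1397 to 1847 CPM, DN+NaB libraries 1433 to 1724 CPM and NC libraries 1007 to 1198 CPM. All levels below are CPM scaled with TMM factors unless given per kilobase, with mean ± SD over n = 4 libraries, and log2 fold changes carry the standard error (SE) of edgeR's quasi-likelihood fit. Calls rest on p-values adjusted by Benjamini and Hochberg's method over all 17530 genes, with 0.05 as the limit.

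Promoters are shown for Irs1, Irs2 and Igfbp1, because Igfbp1 and Irs2 are textbook targets of FOXO factors and Irs1 is the other docking protein gene. RefSeq promoter sequences (GRCm38.p6) matched 9 of the 10 genes, the other being Insr. The searched motifs, on both strands, were CAAAACA, the core of the insulin response element, GTAAACA, a FOXO core, CACGTG, the E-box, and TATAAA, which marks some start sites. Each stretch below covers the 150 bases before the start site, read on the strand of the gene, with motif matches in capitals.
Irs1: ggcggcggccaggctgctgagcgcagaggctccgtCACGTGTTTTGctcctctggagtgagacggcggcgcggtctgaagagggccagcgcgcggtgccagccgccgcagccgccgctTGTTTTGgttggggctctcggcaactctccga
Irs2: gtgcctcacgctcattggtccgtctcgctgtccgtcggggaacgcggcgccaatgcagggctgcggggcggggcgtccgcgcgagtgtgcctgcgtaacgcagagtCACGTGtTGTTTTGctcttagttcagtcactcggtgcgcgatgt
Igfbp1: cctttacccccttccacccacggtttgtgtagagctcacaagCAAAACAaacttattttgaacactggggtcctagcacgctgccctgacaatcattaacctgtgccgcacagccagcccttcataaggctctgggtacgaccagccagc

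The stretch of Irs1 lies at chr1:82291440-82291589 (minus strand), that of Irs2 at chr8:11008930-11009079 (minus strand) and that of Igfbp1 at chr11:7197637-7197786 (plus strand). In Irs1 an E-box at positions -115 to -110 from the start site overlapped a reverse-strand match of CAAAACA at -111 to -105, and a second reverse-strand match stood at -32 to -26. In Irs2 an E-box at -44 to -39 was followed by a reverse-strand CAAAACA at -37 to -31. Igfbp1 held CAAAACA on its own strand at -108 to -102, within the insulin response element known from the rodent gene. Of 32851 promoters of 300 bases, 6.28% held CAAAACA, 7.15% held CACGTG and 0.408% held both, as Irs1 and Irs2 did. No other pair of the searched motifs was counted, so the last share describes this pair and is not a test. TATAAA, in 13.6% of promoters, was found in Igfbp4 at -28 to -23. GTAAACA, in 3.65% of promoters, was found in 0 of the 9. A match describes letters only and shows no binding.

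The levels of the 10 genes spanned a wide range. Per kilobase of exon, Igfbp7 averaged 377 ± 23.3 and Igfbp4 367 ± 25.4 CPM per kilobase in NC, values that did not differ beyond their spread. Igfbp5 followed with 115 ± 12.3 CPM per kilobase. Igfbp3 (48.7 ± 9.85) and Igf1r (48.6 ± 3.90) were next and also not apart, before Insr with 19.4 ± 1.83 CPM per kilobase. Irs2 had 13.0 ± 1.36, Irs1 8.17 ± 1.07 and Igfbp1 5.07 ± 3.22 CPM per kilobase, the last 2 overlapping within their spread. Igf1 was lowest, at 0.716 ± 0.359 CPM per kilobase. The receptor transcripts were thus far more abundant than the ligand transcript, and Igf1r was 2.37 to 2.72 times Insr per length in the 4 NC libraries. Exon lengths are those of an annotation that may differ from the one used for counting.

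**Figure D1:**
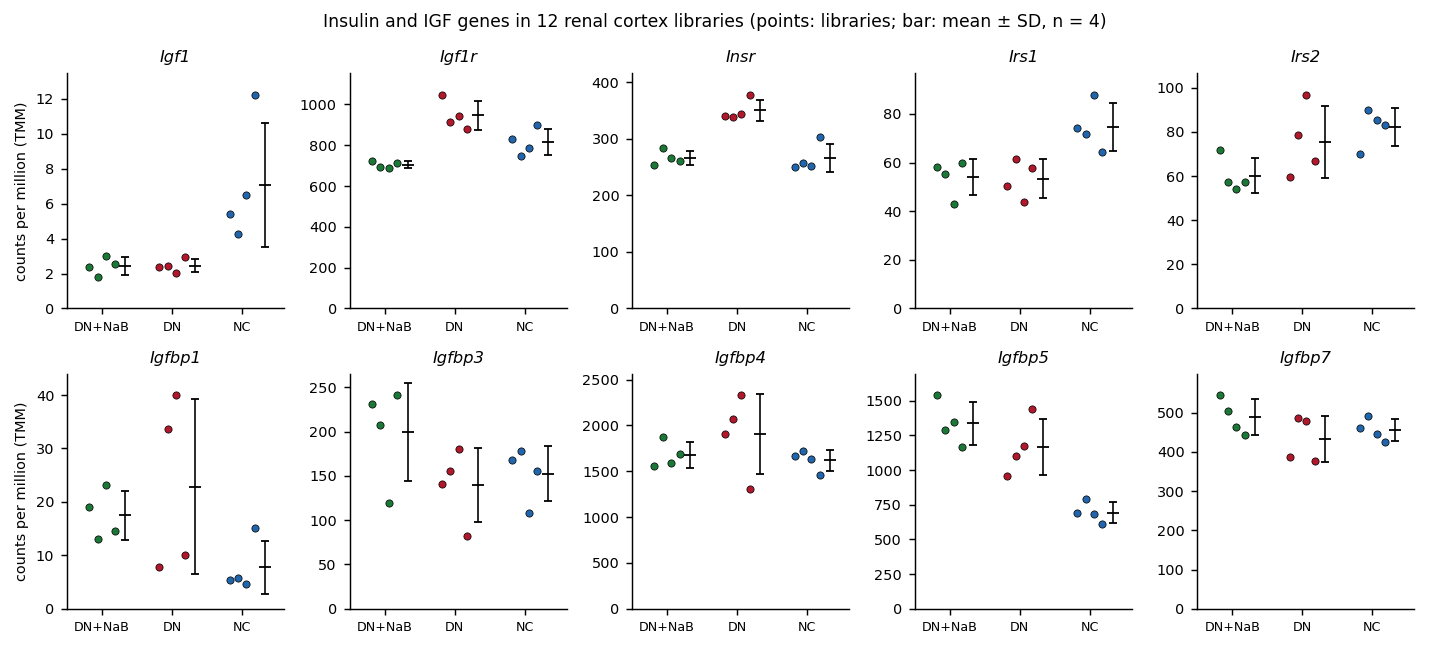
Levels of the 10 genes in CPM with TMM factors on linear axes from 0, by group (DN+NaB green, DN red, NC blue); points are libraries and bars are mean ± SD (n = 4). Igf1 was 1.80 to 3.03 CPM in DN+NaB, 2.03 to 2.94 in DN and 4.24 to 12.2 in NC, while Igfbp5 was lowest in NC and Insr highest in DN.

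The ligand gene fell in disease. Igf1 had 2.35, 2.45, 2.03 and 2.94 CPM in the DN libraries, against 5.42, 4.24, 6.48 and 12.2 CPM in NC. Every DN library lay below every NC library, and NC replicate 4 was by far the highest. The log2 fold change was -1.54 ± 0.29 (edgeR adjusted p = 0.00464), a level 2.91-fold lower in DN. Without NC replicate 4 the log2 fold change was -1.15 and the call was kept. DN+NaB libraries had 2.38, 1.80, 3.03 and 2.57 CPM, a range that overlaps that of DN. The log2 fold change of DN+NaB against DN was 0.00 ± 0.29 (edgeR adjusted p = 0.997; 95% interval -0.62 to 0.63), and against NC it was -1.54 ± 0.29 (edgeR adjusted p = 0.00303).

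In whole tissue, fewer cells of a type and less RNA per cell cannot be told apart. Macrophages are 1 source of Igf1 mRNA. Of 11 macrophage and dendritic cell markers 2 fell and 0 rose in DN by edgeR, beside 4.42% and 3.82% of all genes. In DN+NaB against NC 7 of the 11 were lower and 0 higher, beside 8.94% and 6.62%. Between DN+NaB and DN 0 were called, beside 0.0228%. There 10 of the 11 log2 fold changes were negative and 1 positive, and 3 did not overlap between the groups, beside 4.56% of all genes. An unadjusted p under 0.05 in edgeR was reached by 4 of the 11, beside 9.85%. In DN against NC it was reached by 8, beside 21.9%, and in DN+NaB against NC by 8, beside 30.1%. None of the 11 was at 0 counts in any library. Their summed level was 352 to 1028 CPM in DN+NaB, 1172 to 4243 CPM in DN and 955 to 1304 CPM in NC, and most of it was Cd74, which also presents antigen. Csf1r, the macrophage growth factor receptor, had 3508 to 3945 counts in DN+NaB, 3020 to 4549 in DN and 7162 to 7830 in NC, and Adgre1, the F4/80 antigen gene, had 181 to 366 counts in DN+NaB, 205 to 573 in DN and 537 to 707 in NC. Members of the same list went the other way: H2-Ab1, a class II antigen presentation gene, had 28 to 176 counts in DN+NaB, 375 to 1511 in DN and 170 to 300 in NC, and Cd74 had 13362 to 60675 in DN+NaB, 58106 to 260557 in DN and 45994 to 66724 in NC. In DN 8 of the 11 log2 fold changes were negative, with a median of -0.41 and a range of -1.11 to 1.99. These 4 genes were picked out after their values were seen. The part of these cells in the Igf1 result was not tested.

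The insulin receptor gene rose in disease. Insr had 339, 339, 344 and 378 CPM in DN, against 250.5, 258, 252 and 303 CPM in NC. The groups did not overlap, and the fourth replicate was the highest in both. The log2 fold change was 0.40 ± 0.10 (edgeR adjusted p = 0.0199), a 1.32-fold difference. The call was lost without NC replicate 1, 2 or 3 (edgeR adjusted p = 0.0798, 0.0681 and 0.0747), with only DN and NC in the fit (0.0671), and with library size alone as the scale (log2 fold change 0.30, adjusted p = 0.0962).

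In butyrate-treated cortex Insr had 253, 283, 266 and 261 CPM, each below each DN library and within the NC range. DN+NaB against DN gave a log2 fold change of -0.40 ± 0.10, which missed the threshold in edgeR (adjusted p = 0.154) and passed it in DESeq2 (adjusted p = 0.0123). Against NC it was -0.00 ± 0.10 (edgeR adjusted p = 0.997; 95% interval -0.21 to 0.20). The same 4 DN libraries enter both fold changes, so their opposite signs are not independent.

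Igf1r, the receptor for IGF1, gave its lowest values with butyrate. It had 723, 694, 688 and 715 CPM in DN+NaB, against 1048, 913, 944 and 878 CPM in DN. The groups did not overlap, and the DN+NaB libraries were tightly bunched (705 ± 16.7 CPM). The log2 fold change was -0.42 ± 0.10 (edgeR adjusted p = 0.135; DESeq2 adjusted p = 0.00251), and with 1 library left out the edgeR adjusted p ran from 0.0861 to 0.335. NC libraries had 832, 746, 789 and 899 CPM, which overlap those of DN and lie above those of DN+NaB. DN differed from NC by 0.21 ± 0.10 (edgeR adjusted p = 0.228) and DN+NaB from NC by -0.21 ± 0.10 (edgeR adjusted p = 0.166). On library size alone the last value was -0.33 (adjusted p = 0.0352). Per length, the ratio of Igf1r to Insr was 2.18 ± 0.15 in DN+NaB, 2.22 ± 0.26 in DN and 2.52 ± 0.16 in NC.

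The docking protein gene Irs1 fell in disease. It had 50.4, 61.6, 43.6 and 57.9 CPM in DN, against 74.4, 71.9, 88.0 and 64.5 CPM in NC. The groups did not overlap, though DN replicate 2 and NC replicate 4 lay close. The log2 fold change was -0.48 ± 0.14 (edgeR adjusted p = 0.0472), just past the threshold, and the call was lost with RLE factors (0.0503), with only DN and NC in the fit (0.0789), with the replicate number as a block (0.0620), and without any 1 of 8 of the 12 libraries, among them NC replicates 1 to 3 and DN replicates 1 and 3 (0.0575 to 0.148). DN+NaB libraries had 58.1, 55.3, 43.1 and 59.6 CPM, as low as those of DN (log2 fold change 0.02 ± 0.14, edgeR adjusted p = 0.974; 95% interval -0.28 to 0.32). Against NC the log2 fold change was -0.47 ± 0.14 (edgeR adjusted p = 0.0361), and this call was lost without NC replicate 1, 2 or 3 or DN+NaB replicate 1, 2 or 3 (0.0511 to 0.111).

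Irs2, the docking protein that carries much of the hepatic response to insulin, did not pass in any comparison. It had 71.9, 57.3, 54.1 and 57.3 CPM in DN+NaB, 59.7, 78.5, 96.9 and 66.9 CPM in DN and 69.9, 89.8, 85.6 and 83.1 CPM in NC. DN overlapped both other groups, and 3 of the 4 DN+NaB libraries lay below every other library. DN+NaB against NC gave a log2 fold change of -0.45 ± 0.15, at the threshold (edgeR adjusted p = 0.0546), and it passed in 6 of 8 other settings and without any of 5 libraries, with values of -0.45 to -0.56. DN+NaB against DN gave -0.33 ± 0.15 (edgeR adjusted p = 0.489), and DN against NC -0.12 ± 0.15 (edgeR adjusted p = 0.705). Exons of both Irs1 and Irs2 overlap an antisense gene, Gm9747 and 9530052E02Rik, and without a stated strand setting their reads cannot be told apart.

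**Figure D2:**
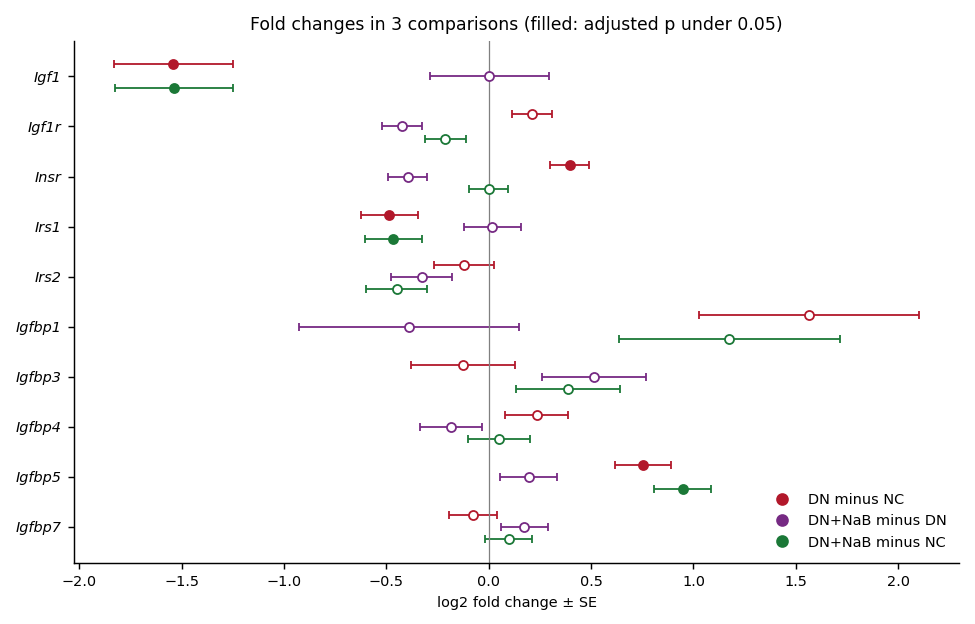
Log2 fold change ± SE of each gene in the comparisons of DN with NC (red), DN+NaB with DN (purple) and DN+NaB with NC (green); filled points passed at an adjusted p under 0.05. Igf1 and Irs1 lay at nearly the same place against NC with and without butyrate (-1.54 for Igf1), Igfbp5 lay at 0.75 and 0.95, and none of the purple points is filled.

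Among the binding proteins, Igfbp5 rose in disease. This matrix-associated binding protein gene had 956, 1105, 1170.4 and 1441 CPM in DN, against 690.0, 790.2, 681 and 610.2 CPM in NC. All DN libraries exceeded all NC libraries. This was a log2 fold change of 0.75 ± 0.14 (edgeR adjusted p = 0.00372), or 1.69-fold, and leaving out any 1 library left it between 0.62 and 0.84 with the call kept. DN+NaB libraries had 1542, 1292, 1344 and 1169 CPM, overlapping DN (log2 fold change 0.19 ± 0.14, edgeR adjusted p = 0.671). Against NC the log2 fold change was 0.95 ± 0.14 (edgeR adjusted p = 4.82e-04), the smallest p of the 10 genes in the 3 comparisons. Endothelial and stromal cells are known to transcribe Igfbp5. Of 10 endothelial markers 2 fell and 0 rose in DN by edgeR, beside 4.42% and 3.82% of all genes. Their summed levels were 923 to 1103 CPM in DN+NaB, 822 to 993 in DN and 905 to 1157 in NC. Of 11 mesangial, pericyte and smooth muscle markers 0 were called in any comparison by edgeR. The shares of all genes called were 8.23% in DN against NC, 15.6% in DN+NaB against NC and 0.0228% in DN+NaB against DN. In the same order 0, 0 and 1 of the 11 had an unadjusted p under 0.05, beside 21.9%, 30.1% and 9.85% of all genes. The sums of the 11 were 630.4 to 737 CPM in DN+NaB, 548 to 700.1 in DN and 612 to 835 in NC. The part of these cells in the Igfbp5 result was not tested.

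Igfbp1, the binding protein gene that insulin represses in liver, was variable. It had 7.73, 33.7, 40.0 and 10.1 CPM in DN, against 5.37, 5.77, 4.70 and 15.1 CPM in NC. DN split into 2 high and 2 low libraries, while NC replicate 4 stood above the other NC libraries, so the groups overlapped. In the fit the log2 fold change came to 1.56 ± 0.54 (edgeR adjusted p = 0.115; 95% interval 0.38 to 2.75). Without NC replicate 4 it was 2.09 (edgeR adjusted p = 0.0352), and without DN replicate 1 it was 1.85 (edgeR adjusted p = 0.0462). Without either high DN library it was smaller, at 1.32 without DN replicate 2 and 1.15 without DN replicate 3 (edgeR adjusted p = 0.242 and 0.272). DN+NaB libraries had the narrower values 19.1, 13.0, 23.2 and 14.6 CPM, and their log2 fold change was -0.39 ± 0.54 against DN (edgeR adjusted p = 0.832) and 1.17 ± 0.54 against NC (edgeR adjusted p = 0.174). Igfbp3, the main IGF carrier of blood and the direct neighbour of Igfbp1 on chromosome 11, had 231, 207, 119.6 and 241 CPM in DN+NaB, 141, 156, 180.5 and 82.1 CPM in DN and 168, 178, 108 and 156 CPM in NC. All 3 groups overlapped, and the log2 fold changes were -0.13 ± 0.25 for DN against NC (0.04 without DN replicate 4) and 0.52 ± 0.25 for DN+NaB against DN (edgeR adjusted p = 0.833 and 0.543).

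Igfbp4, which mostly holds IGFs away from their receptor and is cut by the protease PAPP-A, averaged 1677 ± 140 CPM in DN+NaB, 1905 ± 434 in DN and 1620.1 ± 112 in NC. DN replicate 4 was lowest of all libraries (1309 CPM) and the other DN libraries were highest (1909 to 2333 CPM), so DN overlapped NC (log2 fold change 0.23 ± 0.15, edgeR adjusted p = 0.413). Without DN replicate 4 the difference was 0.36 and passed (edgeR adjusted p = 0.0404). Igfbp7, a family member of low affinity for IGFs, averaged 488 ± 45.5 CPM in DN+NaB, 432 ± 58.8 in DN and 456 ± 28.2 in NC, and did not pass in any comparison (adjusted p = 0.604 to 0.767 by edgeR). Igfbp7 exons overlap Polr2b on the other strand, so its reads are uncertain too.

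Set per length, the 5 binding protein transcripts kept Igfbp4 and Igfbp7 as the leading pair. Igfbp5 made up 20.6% ± 1.84 of their sum in DN+NaB, 19.1% ± 5.44 in DN and 12.6% ± 0.545 in NC. Igfbp7 made up 37.3% ± 1.58 in DN+NaB, 34.3% ± 1.45 in DN and 41.3% ± 0.290 in NC. Igfbp4 held 35.2% ± 3.10 in DN+NaB, 41.0% ± 5.12 in DN and 40.2% ± 1.12 in NC. In DN replicate 4 the Igfbp5 share reached 27.2%, the highest of the DN libraries. Igfbp1 stayed a minor part, with at most 2.18% in any library.

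**Figure D3:**
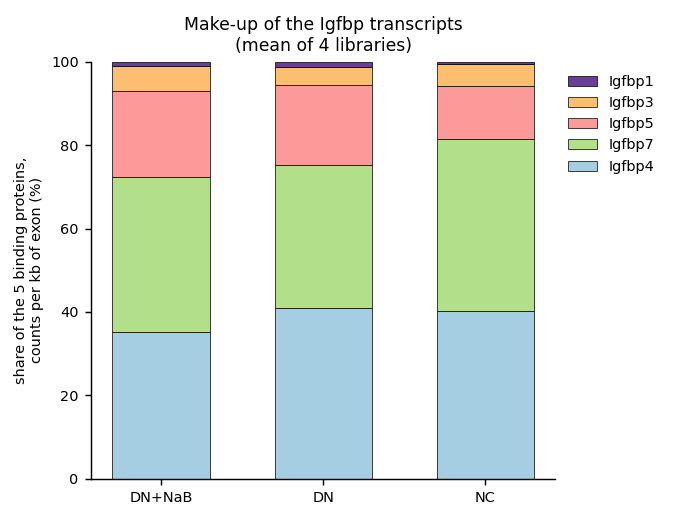
Share of each binding protein in the sum of the 5 measured ones, in counts per kilobase of exon (%), as stacked bars of the mean of 4 libraries for DN+NaB, DN and NC. The Igfbp5 band is 20.6% in DN+NaB, 19.1% in DN and 12.6% in NC.

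Counted together, 4 of the 10 genes were called between DN and NC, 2 higher (Insr and Igfbp5) and 2 lower (Igf1 and Irs1), beside 8.23% of all tested genes (3.82% higher and 4.42% lower). The 10 genes were chosen with earlier results of these data known. The shares of all genes are therefore given for scale, and no excess in this list was tested. An unadjusted p under 0.05 was reached by 6 of the 10, beside 21.9% of all genes, and 4 did not overlap between the groups, beside 13.3% of all genes. Without NC replicate 1, 2 or 3, or with only the 2 groups compared in the fit, the count was 2 (Igf1 and Igfbp5). DESeq2 called the same 4, beside 11% of all genes. The median log2 fold change of the 10 was 0.07, beside 0.01 over all genes. Between DN+NaB and DN edgeR called 0 of the 10, beside 0.0228% of all genes (0.0114% higher and 0.0114% lower). An unadjusted p under 0.05 was reached by 3 of the 10 (Igf1r, Insr and Irs2), beside 9.85% of all genes, and DESeq2 called 2 (Igf1r and Insr, both lower), beside 1.52% of all genes that it gave an adjusted p. In that comparison 2 of the 10 did not overlap between the groups, beside 4.56% of all genes, and the median was -0.09, beside -0.02 over all genes. Between DN+NaB and NC 3 were called (Igfbp5 higher, Igf1 and Irs1 lower), beside 15.6% of all genes (6.62% higher and 8.94% lower). Here 4 of the 10 reached an unadjusted p under 0.05, beside 30.1% of all genes, and 4 did not overlap, beside 27.9%. DESeq2 called 4, with Irs2 added, beside 17.5% of all genes. The median was 0.02, beside -0.01 over all genes.

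The rest of the pathway was described through 79 further genes, also chosen with earlier results of these data known, of which 76 were tested. Ins1 and Irs4 were at 0 counts throughout, a level compatible with at most 3 per library, and Ins2 had 0 to 7. Between DN and NC 8 were called, 2 higher and 6 lower, which is 10.5% beside 8.23% of all genes, and the median was 0.03, beside 0.01. Between DN+NaB and DN edgeR called 0, beside 0.0228% of all genes. Of the 76, 7 had an unadjusted p under 0.05, a share close to the 9.85% of all genes, and DESeq2 called 1, beside 1.52% of all genes. That gene was Stc2, singled out after its values were seen. Between DN+NaB and NC 8 were called, 2 higher and 6 lower, or 10.5% beside 15.6% of all genes.

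**Figure D4:**
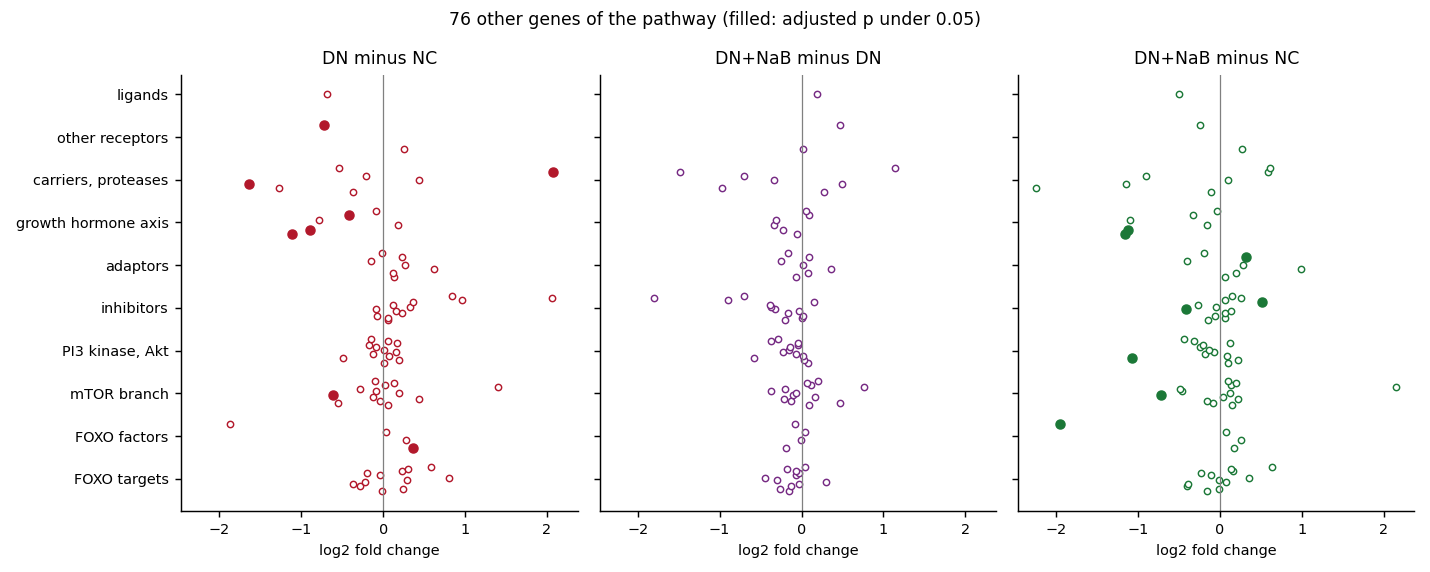
Log2 fold changes of the 76 tested pathway genes by functional group, in a panel for each comparison; filled points passed at an adjusted p under 0.05. Called genes stand mostly on the lower side in the 2 panels against NC, with growth hormone axis genes among them, and none is filled between DN+NaB and DN.

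The growth hormone axis, which drives Igf1 transcription in liver, held 3 lower genes of 6 in DN, beside 4.42% of all genes. Ghr, the growth hormone receptor gene, had 319.8, 268, 175 and 291 CPM in DN, against 358, 448, 488 and 666 CPM in NC. Its groups did not overlap, and NC replicate 4 was the highest, as it was for Igf1. It gave a log2 fold change of -0.90 ± 0.21 (edgeR adjusted p = 0.0175), and it missed the threshold without NC replicate 3 (0.0521) or 4 (0.0602). Cish, a feedback inhibitor induced by the factor STAT5 downstream of that receptor, averaged 27.1 ± 7.76 CPM in DN and 58.5 ± 13.3 in NC (-1.11 ± 0.20, edgeR adjusted p = 0.00330), and the call was kept in every setting tried. Stat5a fell by 0.41 ± 0.12 on the log2 scale (edgeR adjusted p = 0.0486), a call lost in 13 of 20 settings. Socs2, another target of STAT5, had 3.79, 2.32, 2.83 and 8.54 CPM in DN and 6.18, 6.55, 4.59 and 12.8 in NC, with the fourth replicate highest in both (-0.78 ± 0.39, edgeR adjusted p = 0.265). In DN+NaB, Ghr averaged 225 ± 38.4 CPM and Cish 26.2 ± 1.49, lower than NC by 1.12 ± 0.21 and 1.16 ± 0.20 on the log2 scale (edgeR adjusted p = 0.00277 and 0.00155). Neither differed past the threshold between DN+NaB and DN (-0.23 ± 0.21 and -0.05 ± 0.20, edgeR adjusted p = 0.745 and 0.949). Exons of Cish and Stat5a, like those of Stc1 and Foxo1 below, overlap genes on the other strand, so their counts are uncertain.

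**Figure D5:**
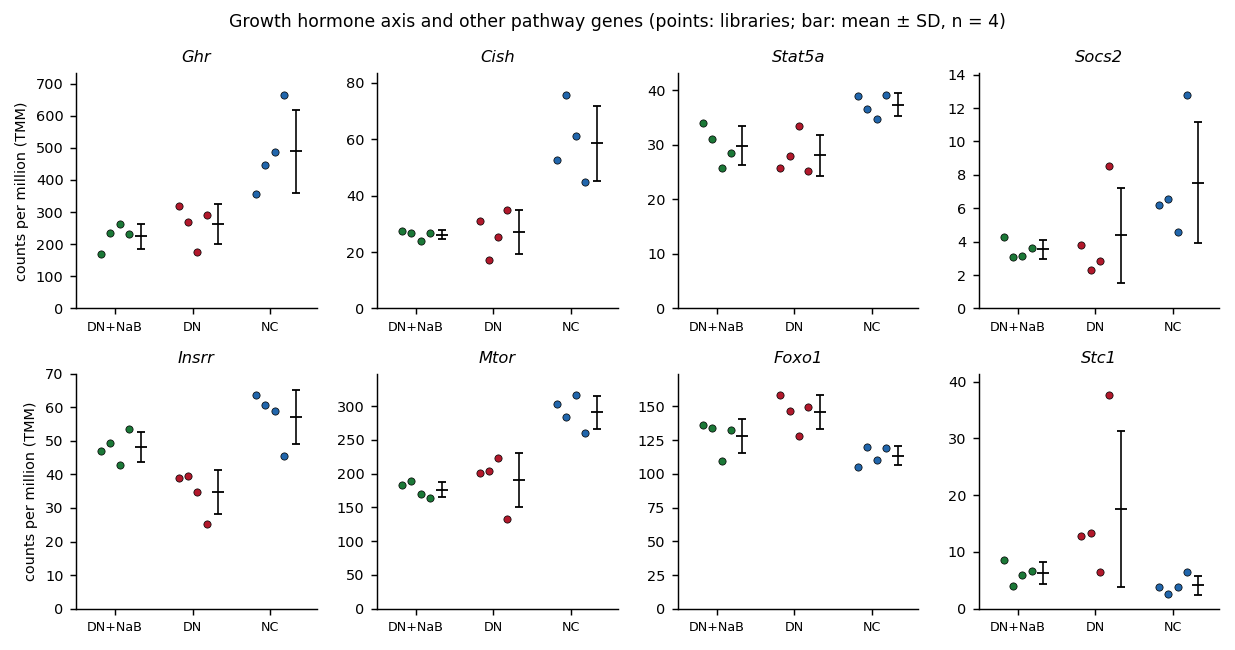
Levels in CPM of 4 growth hormone axis genes (top) and 4 other pathway genes (bottom) on linear axes from 0, by group; points are libraries and bars are mean ± SD (n = 4). Ghr and Cish lay lower in DN+NaB and DN than in NC without overlap, Insrr was lowest in DN, and Stc1 reached 37.7 CPM in DN replicate 4.

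Of the other ligands and receptors, Igf2, the fetal growth factor, had 2.08 ± 0.54 CPM in DN and 3.34 ± 0.29 in NC (-0.68 ± 0.23). The groups did not overlap, and the difference missed in edgeR (adjusted p = 0.0899) and passed in DESeq2 (adjusted p = 0.0305). Igf2 exons overlap Gm49394 on the same strand and Igf2os on the other, so its counts are uncertain. Insrr, the insulin receptor-related receptor, an alkali sensor of intercalated cells, fell to 39.0, 39.4, 34.8 and 25.3 CPM in DN, against 63.7, 60.6, 59.0 and 45.4 CPM in NC. The groups did not overlap, and the fourth replicate was lowest in both (-0.72 ± 0.15, edgeR adjusted p = 0.00754). DN+NaB libraries had 47.0, 49.4, 42.7 and 53.4 CPM, all above DN, but the difference of 0.47 ± 0.15 did not pass (edgeR adjusted p = 0.288). Igf2r, which takes IGF2 to lysosomes, differed by 0.25 ± 0.11 in DN (edgeR adjusted p = 0.212).

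Among 7 further carriers and regulators of the binding proteins, Stc1 rose and Igfbp6 fell in DN. Stc1, a stanniocalcin that inhibits the protease PAPP-A, had 12.8, 13.4, 6.51 and 37.7 CPM in DN, against 3.83, 2.55, 3.80 and 6.49 CPM in NC (log2 fold change 2.08 ± 0.46, edgeR adjusted p = 0.0195). DN replicate 3 lay just above NC replicate 4, and the highest value came from DN replicate 4, without which the value was 1.37 and still called. The call was lost with no low-count filter (0.0574) and without NC replicate 1, 2 or 3 (0.0598 to 0.0612). In DN+NaB it had 8.51, 3.92, 6.01 and 6.66 CPM (-1.49 ± 0.46 against DN, edgeR adjusted p = 0.317). Its paralogue Stc2 had 6.82, 5.91, 4.28 and 6.86 CPM in DN+NaB, against 2.37, 2.25, 3.29 and 2.87 CPM in DN, without overlap (1.15 ± 0.23, edgeR adjusted p = 0.0827). Igfbp6, a carrier that prefers IGF2, was scarce, with 4 to 14 counts per library in DN and 23 to 42 in NC (-1.63 ± 0.48, edgeR adjusted p = 0.0494), and the call was lost in 15 of 20 settings. Igfbp2, the neighbour of Igfbp5 on chromosome 1, had 0.643 to 3.73 CPM in DN and 0.818 to 12.5 in NC, and DN against NC was not called (edgeR adjusted p = 0.390). In DN+NaB it had 0.265 to 2.64 CPM, overlapping NC, with a log2 fold change of -2.24 ± 0.79 against NC. That difference missed in edgeR (adjusted p = 0.0884) and passed in DESeq2.

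Downstream, 1 of 13 mTOR branch genes was called in DN (7.69%, beside 8.23% of all genes): Mtor, the kinase itself, fell to 190.1 ± 39.9 CPM in DN, against 291 ± 24.6 in NC (-0.61 ± 0.14, edgeR adjusted p = 0.0152), and it was lower in DN+NaB than NC too (177 ± 11.8 CPM, -0.72 ± 0.14, adjusted p = 0.00353). In DN 0 of 12 PI3 kinase and Akt genes were called by edgeR and by DESeq2, beside 8.23% and 11% of all genes, and 0 had an unadjusted p under 0.05, beside 21.9%. Lists of this size would hold few calls at the edgeR and DESeq2 shares, so nothing particular to them is read from the counts of calls. The 0 beside the larger share of 21.9% was not tested. Akt2, the insulin-responsive Akt gene, differed by 0.19 ± 0.11 and Pik3r1 by -0.17 ± 0.13. Of 7 tested adaptors 0 were called in DN by edgeR and by DESeq2, with 2 at an unadjusted p under 0.05. The adaptor Shc1 was higher in DN+NaB than NC by 0.32 ± 0.09 (adjusted p = 0.0340), while DN differed from NC by 0.23 ± 0.09 (adjusted p = 0.160). Of 12 inhibitors of the pathway 0 were called in DN by edgeR and by DESeq2, with 3 at an unadjusted p under 0.05; Grb10, which binds both receptors, differed by 0.05 ± 0.09. Against NC, DN+NaB had more Ptprf, a receptor phosphatase (0.52 ± 0.12, adjusted p = 0.0119), and less Phlpp2, an Akt phosphatase (-0.41 ± 0.10, adjusted p = 0.0171). DN differed from NC by 0.36 ± 0.12 for Ptprf and -0.09 ± 0.10 for Phlpp2 (adjusted p = 0.0937 and 0.689), and neither passed between DN+NaB and DN (adjusted p = 0.709 and 0.326).

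Of the 4 FOXO factor genes, Foxo1 rose to 159, 146, 128 and 149.8 CPM in DN, against 105, 120.2, 110.2 and 119 CPM in NC (0.36 ± 0.10, edgeR adjusted p = 0.0460). The groups did not overlap, but the call was lost in 14 of 20 settings. DN+NaB gave 128 ± 12.3 CPM (-0.19 ± 0.10 against DN, edgeR adjusted p = 0.594). Foxo3 differed by 0.28 ± 0.18 (adjusted p = 0.410), and Foxo6, with 3 to 10 counts per library in DN+NaB and 25 to 31 in NC, was lower in DN+NaB than NC (-1.95 ± 0.55, adjusted p = 0.0282). In DN Foxo6 had 2 to 14 counts, without overlap with NC, and a log2 fold change of about the same size (-1.87 ± 0.55), which missed in edgeR (adjusted p = 0.0509) and passed in DESeq2 (adjusted p = 0.0162). Of 12 genes that FOXO factors are known to raise in liver or muscle 0 were called in any comparison by edgeR or DESeq2. An unadjusted p under 0.05 was reached by 0 of the 12. Over all genes, edgeR called 8.23% in DN against NC, 0.0228% in DN+NaB against DN and 15.6% in DN+NaB against NC. In the same order DESeq2 called 11%, 1.52% and 17.5%, and 21.9%, 9.85% and 30.1% had an unadjusted p under 0.05 in edgeR. A list of 12 would hold few calls at the edgeR and DESeq2 shares, so nothing particular to it is read from the counts of calls. The shares at an unadjusted p are larger, and the 0 of the 12 beside them was not tested. Among the 12, Pck1, a gluconeogenic enzyme gene, had 4731 ± 935 CPM in DN and 3865 ± 566 in NC (95% interval of the log2 fold change -0.14 to 0.72). Pdk4, a brake on pyruvate use, had 44.5 ± 28.3 CPM in DN and 25.5 ± 18.1 in NC (-0.68 to 2.29).

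Other cell types were looked at through their markers. Over all genes, edgeR called 4.42% lower and 3.82% higher in DN, and 8.94% lower and 6.62% higher in DN+NaB, each against NC. Short lists would hold few calls at those shares, so 1 call in a list is not read as a result about it. Of 10 proximal tubule markers 1 fell in DN, and their sum was 28024 to 37304 CPM in DN+NaB, 20951 to 33946 in DN and 24052 to 28554 in NC. Of 6 thick ascending limb markers 2 fell in DN, and their sum was 5406 to 6923 CPM in DN+NaB, 5291 to 7363 in DN and 7716 to 13158 in NC. In DN+NaB against NC 3 of these 6 were lower and 1 higher. Of 6 distal convoluted and connecting tubule markers 1 was higher and 0 lower in DN. In DN+NaB against NC 3 of them were higher and 1 lower. Of 10 injured tubule markers 3 were higher and 0 lower in DN, and likewise in DN+NaB, each against NC. Of 8 tested T and NK cell markers 2 fell in DN and all 8 were lower in DN+NaB than in NC, with a sum over the 10 listed of 2.38 to 3.64 CPM in DN+NaB, 5.93 to 20.2 in DN and 16.5 to 29.9 in NC. The part of these shifts in the values of the insulin and IGF genes was not tested.

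For each gene called in any comparison, the 2 genes with the closest course over the 12 libraries were found as the smallest root mean square (RMS) difference of centred log2 CPM among 12575 candidates. For Igf1 these were Crot and Agps, both of peroxisomal lipid metabolism (RMS difference 0.22 and 0.27, beside an own RMS deviation of 0.77). Crot had a log2 fold change of -1.34 ± 0.21 in DN and -1.48 ± 0.21 in DN+NaB against NC (edgeR adjusted p = 0.00126 and 4.11e-04). For Insr they were Alkbh5, an RNA demethylase gene, and Sin3a, a corepressor scaffold of histone deacetylase complexes (0.085 and 0.097, beside 0.20), neither of which was called. For Irs1 they were Ank and Fam234b (0.12 and 0.14, beside 0.29), and for Igfbp5 Tmem43 and Oat, the ornithine aminotransferase gene (0.16 and 0.17, beside 0.44). Oat differed from NC by 0.58 ± 0.12 in DN and 0.71 ± 0.12 in DN+NaB (edgeR adjusted p = 0.00650 and 0.00104). A shared course over these libraries reflects the same 3 groups.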

How the data were processed

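Per-gene counts of 12 renal cortex libraries (3 groups of 4) were used as deposited: whole-number counts per gene symbol in 1 table, not normalized by the authors. Per the submitters' processing notes the reads went through HISAT2 2.0.4. For the counter, its strand setting and its annotation and build: not given in the sources used here. The median depth was 63588713 counts per library. Genes were filtered with filterByExpr, scaled with TMM, and fitted in 1 edgeR 4.0.16 quasi-likelihood model (R 4.3.3, robust, group as the only term); tests are two-sided. Fold change intervals use the fit's standard error and t quantiles. The fit was tested on simulated data for DN against NC only. It recovered 68 of 100 genes changed by a log2 size of 1 and 95 of 100 changed by 2. Of its 169 calls 6 were false. Changes of a smaller size were not simulated. DESeq2 1.42.0 was an alternative, as were other factors, filters, sample sets and a replicate block. The replicate numbers gave correlations of deviations from -0.25 to 0.27 between same-numbered libraries. For replicate 4 they were positive throughout: 0.20 in DN against NC, 0.27 in DN+NaB against DN and 0.22 in DN+NaB against NC. In the same order replicate 2 had 0.054, 0.12 and 0.11, and replicates 1 and 3 had both signs. The main fit did not treat the numbers as pairs. A feature shared by the fourth libraries was not tested. Exon lengths and overlaps came from GENCODE M21 (GRCm38), promoters from RefSeq.

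The genes and lists were chosen with earlier results of these data known. By rule the text names the 10 genes, up to 4 called genes per pathway list and comparison, 14 fixed pathway genes, and the 2 closest genes for each called one, leaving out predicted and clone-based symbols. Stc2 and the markers given singly were chosen after their values were seen. A called pathway gene is not reported here by name.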

Additional observations from a re-analysis of the deposited data

Results flagged for a closer look

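In 3 of 30 groups (10 genes in 3 groups of 4 libraries), 1 library stood apart from the rest by Dixon's test at the 95% level, where chance gives about 1 in 20. Insr was 378 CPM in DN replicate 4, against 339 to 344 CPM in the other DN libraries. It was 303 CPM in NC replicate 4, against 250.5 to 258 CPM in the other NC libraries. Igfbp1 was 15.1 CPM in NC replicate 4, against 4.70 to 5.77 CPM in the others. Igf1 was highest in NC replicate 4 too (12.2 CPM) but did not reach the limit.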

How the results depend on the processing

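Between DN and NC, 4 of the 10 genes were called; 2 were called with only the 2 groups compared in the fit, and 2 to 5 with 1 library left out. The pathway count of 8 was 4 with no low-count filter, 5 with only the 2 groups compared, and 3 to 11 with 1 library left out (3 without NC replicate 3, 11 without DN replicate 4). The count over all genes was 1443, 2176 with DESeq2 and 942 to 1976 with 1 library left out. Between DN+NaB and DN, DESeq2 called 2 of the 10 genes and 1 pathway gene where edgeR called 0 of each. The count of 4 over all genes was 22 with RLE factors, 26 with library size only, 27 with no filter, 17 with at least 1 CPM in 4 libraries, 266 with DESeq2, 0 with only the 2 groups compared, 7 with the replicate block, and 0 to 67 with 1 library left out (67 without DN replicate 3). Between DN+NaB and NC, the count of 3 of the 10 genes was 4 with DESeq2, 5 with library size only and 2 to 4 with 1 library left out. Irs2, just over the limit in the main fit, passed in most of the other settings and so raised the count above 3 there as well. The pathway count of 8 was 13 with DESeq2, 14 with only the 2 groups compared and 5 to 13 with 1 library left out. The 2729 genes in all were 1833 to 3716 with 1 library left out. The causes were not tested. Library size alone put the median of all genes at -0.12 in this comparison, against -0.01 with TMM.

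Values near 0 changed sign without a call. For Igf1 in DN+NaB against DN (0.0037) they were -0.0018 with RLE factors, -0.018 with library size only, -0.0088 with at least 1 CPM in 4 libraries, -0.0016 with DESeq2, -0.0047 with only the 2 groups compared, -0.0071 with the replicate block and -0.11 to 0.12 with 1 library left out. Irs1 there was -0.0027 with library size only and -0.066 to 0.11 with 1 left out, and Igfbp1 -0.68 to 0.027. Igfbp3 in DN against NC was -0.27 to 0.039 with 1 left out. In DN+NaB against NC, Insr was 0.0035 with the replicate block and -0.035 to 0.055 with 1 left out, Igfbp4 -0.062 with library size only and -0.011 to 0.086 with 1 left out, and Igfbp7 -0.014 with library size only. In the replicate block same-numbered libraries share a term. It gave 3 called genes of the 10 between DN and NC (Irs1 lost), 0 between DN+NaB and DN and 3 between DN+NaB and NC. In the same order it called 1416, 7 and 2891 genes in all. No label states that same-numbered libraries are pairs. Igf1 and Igfbp5 kept their calls against NC in every setting tried. Standard errors ran from 0.096 (Insr) to 0.54 (Igfbp1), which limits the differences that could be detected.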
